A study of Rattus norvegicus with 3 samples.

Results

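Of the 69263 DLX3 peaks called in rat enamel organ, 5268 (7.61%, 95% Wilson interval 7.41 to 7.81%) lay more than 100 kb from any H3K4me3 peak, and these remote peaks are described here. A peak was counted as remote when the gap between its edge and the edge of the nearest H3K4me3 peak on the same chromosome exceeded 100000 bp. They were thus chosen by their distance to the mark, a measured value, and their number and distances are descriptions. The tissue was enamel organ from mandibular incisors, which grow throughout life, of wildtype rats at the adult stage, profiled by chromatin immunoprecipitation and sequencing (ChIP-seq) with 1 library against DLX3 and 1 against H3K4me3, beside an input library without antibody. All 3 libraries share this tissue, genotype and stage, and there is no treatment. Titles and design name DLX3 and H3K4me3, but the antibody field of those samples reads anti-DLX4 and anti-H3K4me4. The titles were followed, and nothing in the lists checks the antibody.

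DLX3 is a homeodomain transcription factor of teeth, hair and bone, and mutations in its gene cause tricho-dento-osseous syndrome, in which enamel is thin or pitted. The enamel organ is the epithelium that holds the ameloblasts, the cells that secrete and mature enamel. Trimethylation of histone H3 at lysine 4, H3K4me3, is concentrated at the starts of active genes, whereas enhancers, which can act over long distances, usually carry little of it. A transcription factor peak far from any H3K4me3 peak is therefore a place of called binding distant from every promoter with a called mark in the same tissue. Promoters whose mark was not called are not seen.

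The lists give the position of each peak in rn5 together with a score set by the authors. The DLX3 scores began at 50 and reached 3218. The lists hold no read counts, so depth is unknown and weak sites may be missing. No library was replicated, neighbouring peaks are not independent, and no difference between classes of peaks was tested. Intervals cover counting error only. An rn5 gene annotation and rn5 sequence were not used here, so sites are named by position.

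Remote peaks were narrower than other peaks outside the mark. Their scores were slightly lower in all, but not in every class of equal numbers of neighbouring DLX3 peaks. Their median width was 694 bp (quartiles 518 and 925 bp, interval of the median 685 to 706 bp), against 876 bp for peaks lying 10 to 100 kb from the mark and 1448 bp for peaks on it. The remote peaks ranged from 223 to 5424 bp and together covered 4086 kb, 4.76% of the sequence under all DLX3 peaks. Their median score was 79.2 (quartiles 60.3 and 123.9, interval 77.9 to 80.7), against 82.7 (interval 82.1 to 83.4) for the 31318 peaks at 10 to 100 kb. Peaks on the mark had a higher median score, 140.5 (interval 138.4 to 143.1). Beside the peaks at 10 to 100 kb, the difference in width was thus larger in proportion than that in score. The median width was lower for remote peaks than for peaks at 10 to 100 kb on 21 of 21 chromosomes, and the median score on 18 of 21. The order of the scores varied when peaks with like numbers of other DLX3 peaks within 50 kb were compared. With no such neighbour the median score was 72.7 for remote peaks (interval 70.4 to 75.3) and 71.5 at 10 to 100 kb (69.3 to 74.2). With 1 or 2 it was 78.4 (76.2 to 81.8) and 76.2 (74.6 to 77.75), so in both classes the intervals overlapped. With 3 to 9 the remote value was higher, 84.6 (interval 82.4 to 88.7) against 79.9 (79.1 to 80.8). Only with 10 or more was the remote value lower, 80.2 (75.6 to 84.2) against 89.6 (88.5 to 90.8). The widths kept their order but lay closer together, at 560 and 616 bp, 649 and 692 bp, 789 and 834 bp, and 943 and 1060 bp in these 4 classes.

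The narrow shape was seen at every level of score. When the whole list was divided into quartiles of score, remote peaks had median widths of 573, 677, 786 and 884 bp from the lowest to the highest quartile. Peaks at 10 to 100 kb had 699, 830, 1004 and 1295 bp in the same quartiles. Seen from the list as a whole, the narrowest decile of DLX3 peaks, 205 to 527 bp, included 1396 remote peaks, or 20.2% of its members (Wilson interval 19.2 to 21.1%). In the widest decile, 2162 to 32205 bp, 46 peaks or 0.664% were remote (0.498 to 0.885%). By score the gradient was shallower: 10.3% of the lowest decile was remote (9.60 to 11.03%) and 3.83% of the highest (3.40 to 4.30%). Among peaks outside the mark alone, these shares were 11.6% and 8.18%, a smaller gap than in the whole list, whose highest decile is rich in peaks on the mark. Score and width rose together among remote peaks, with a Spearman correlation of 0.36 over 5268 peaks of 1 library, and 0.45 over those at 10 to 100 kb.

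Most remote peaks lay not far past the limit. The median distance to the mark was 156 kb (quartiles 120.4 and 233.1 kb), and 2465 peaks (46.8%) were 100 to 150 kb away. A further 1074 lay at 150 to 200 kb, 884 at 200 to 300 kb, 564 at 300 to 500 kb, 229 at 500 kb to 1 Mb, and 52 beyond 1 Mb. The class is thus the tail of a continuous series, and peaks on both sides of the limit were mixed in score. The 5 members nearest to the limit lay 100003 to 100035 bp from the mark with scores of 324.8, 61.6, 72.7, 83.0 and 86.9. The 5 peaks just left out lay 99977 to 99944 bp away with scores of 184.8, 57.5, 81.8, 319.8 and 304.0.

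With growing distance the peaks became sparser, narrower and more isolated, and the median score changed little. Sequence up to 10 kb from the mark held 39.99 to 42.7 DLX3 peaks per Mb in each of 3 bins. The density was 39.1 per Mb at 10 to 25 kb, 30.6 at 25 to 50 kb and 19.8 at 50 to 100 kb. Past the limit it was 9.52 per Mb at 100 to 200 kb, 4.29 at 200 to 300 kb, 2.31 at 300 to 500 kb, 0.870 at 500 kb to 1 Mb and 0.154 beyond 1 Mb. Median width over the same 5 bins was 743, 650, 612, 521 and 455 bp. Median score was 80.5, 76.1, 78.4, 78.8 and 76.0. The farthest value rests on 52 peaks, and the interval of their median score was wide, 63.6 to 121.0. All 1423 Mb of sequence over 100 kb from the mark gave 3.70 remote peaks per Mb. Unassembled or unmappable sequence counts in these lengths. Without stretches over 5 Mb, an alternative chosen after seeing the data, the density beyond 1 Mb was 0.331 per Mb and that of all remote sequence 4.50.

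**Figure D1:**
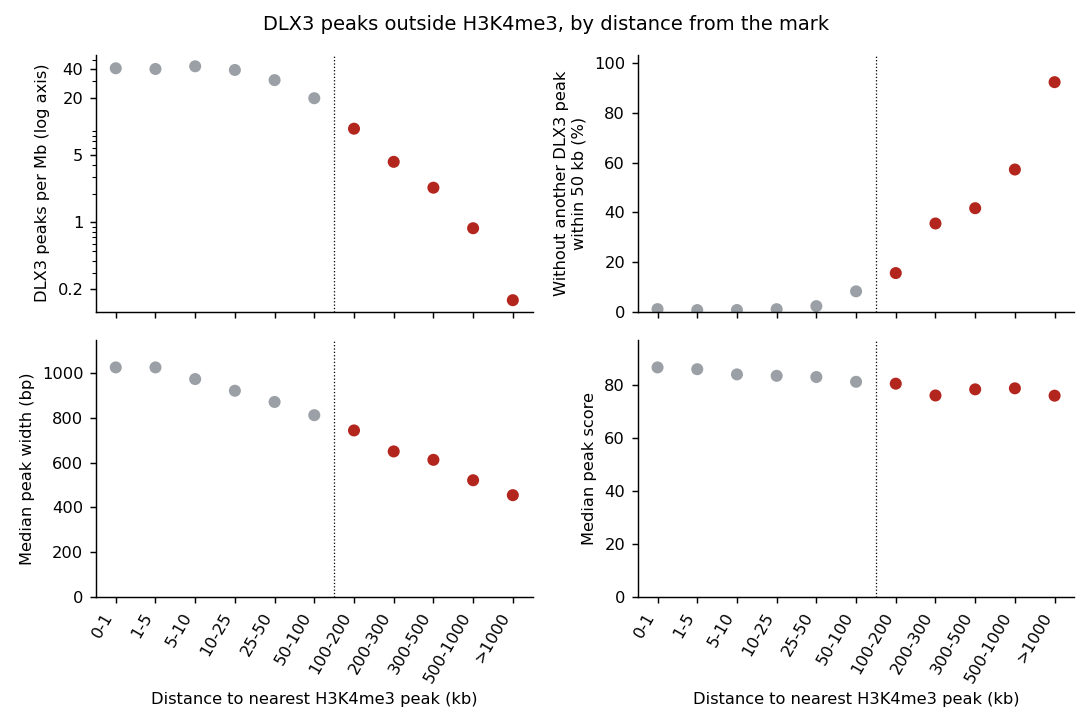
DLX3 peaks outside H3K4me3 by distance to the nearest H3K4me3 peak (kb, 11 bins; red bins and the side right of the dotted line are remote): peaks per Mb of sequence (log axis), share without another DLX3 peak within 50 kb (%), median width (bp) and median score. Density went from 40.7 to 0.154 peaks per Mb and median width from 1024 to 455 bp, while every median score lay between 76.0 and 86.6.

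Remote peaks were more often alone than DLX3 peaks nearer to the mark, yet most still had company. A peak was called solitary when no other DLX3 peak, remote or not, lay within 50 kb of its edges. Of the remote peaks, 1280 (24.3%, Wilson interval 23.2 to 25.5%) were solitary. This held for 999 peaks (3.19%, 3.00 to 3.39%) at 10 to 100 kb, 119 (0.788%) nearer than that, and 939 (5.34%) on the mark. The share was higher in the remote class than at 10 to 100 kb on 21 of 21 chromosomes. The median number of neighbours was 2 for remote peaks (quartiles 1 and 5) and 8 at 10 to 100 kb (quartiles 4 and 13). The nearest DLX3 peak was a median of 12116 bp away, against 3271 bp. At the dense end, 611 remote peaks (11.6%) had 10 or more neighbours, and the fullest surroundings held 34. Of the peaks at 10 to 100 kb, 39.6% had 10 or more.

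Isolation followed distance. The solitary share was 13.5% at 100 to 150 kb (12.2 to 14.9%), 20.5% at 150 to 200 kb, 35.5% at 200 to 300 kb, 41.7% at 300 to 500 kb and 57.2% at 500 kb to 1 Mb. Beyond 1 Mb, 48 of 52 peaks were solitary (92.3%, 81.8 to 97.0%). No peak over 300 kb from the mark had 10 neighbours. Since a solitary peak needs empty sequence around it, this share and the density per Mb describe the same thinning out. The solitary share was 27.8% in the lowest score quartile of the list and 21.1% in the highest among remote peaks, against 4.17% and 1.87% at 10 to 100 kb, so it was also high among strong peaks.

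The 3988 remote peaks with a neighbour were of 2 kinds when DLX3 peaks were chained at gaps of up to 50 kb. In 1895 cases (36.0%) the whole chain was remote, and these formed 607 clusters far from the mark. In the other 2093 (39.7%) the chain went on to DLX3 peaks inside the limit, and for 1430 of those it reached a peak on H3K4me3. The median width was 873 bp for members of chains that reached the mark, 675 bp in wholly remote clusters and 560 bp for solitary peaks. They also had more neighbours, a median of 7 against 2 in wholly remote clusters. The median score was 81.0 (interval 78.5 to 83.3) in chains that reached the mark and 82.3 (79.1 to 84.5) in wholly remote clusters, and lower, 72.7 (70.4 to 75.3), for solitary peaks.

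Wholly remote clusters were small. Of the 607, 323 were pairs, 199 had 3 or 4 peaks, 75 had 5 to 9 and 10 had 10 or more, with a median span of 27.8 kb. The largest was on chromosome 1 (212897169 to 213116650), where 17 peaks spread over 219.5 kb with a median score of 94.7. A second cluster on chromosome 1 (209939081 to 210137268) held 14 peaks and a highest score of 468.9. Another 14 lay within 89.8 kb on chromosome 13 (115687174 to 115776980). Clusters of 13 peaks were found on chromosome 11 (81085435 to 81207368) and chromosome 18 (48748808 to 48909996). These 5 were named after their values were seen. The chains with the most DLX3 peaks that include a remote peak were of another kind, since they ran through marked sequence. The fullest, on chromosome 5 (163019291 to 164907238), had 289 DLX3 peaks, of which 66 were on the mark and 2 remote. The next by number of peaks, on chromosome 9 (95973983 to 98298231), had 249, of which 14 were remote. A further chain on chromosome 5 (170076004 to 171851670) had 224 peaks and 7 remote ones. The last 2, of 152 peaks on chromosome 2 (222747955 to 224123258) and 149 peaks on chromosome 10 (108542568 to 109814476), had 3 remote peaks each.

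Most of the 10 strongest remote peaks had few neighbours, as did remote peaks in general, with a median of 2. Solitary peaks were 3 of these 10, near the 24.3% of all remote peaks. At a score of 500 or more, 8 of 46 remote peaks were solitary. The highest score, 1492, belonged to a solitary peak of 733 bp on chromosome 5 (50992914 to 50993646), 265.0 kb from the mark in a stretch of 3014 kb without H3K4me3. Its nearest DLX3 peak was 58.8 kb away, and it exceeded or equalled 99.9% of all DLX3 peaks in score. The second, with 978.6, was a solitary peak of 668 bp on chromosome 7 (136238383 to 136239050), 182.9 kb from its nearest DLX3 peak. The third, with 903.6, was 1263 bp wide on chromosome 8 (65666009 to 65667271) and had 6 neighbours, the nearest only 145 bp away.

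The fourth was different in shape. It was the widest remote peak, 5424 bp on chromosome 13 (74874912 to 74880335), with a score of 900.8, 24 neighbours and a distance of 102.6 kb, close to the limit. The others of the highest 10 had at most 3 neighbours. A score of 867.8 was given to a peak on chromosome 10 (69527632 to 69528813), and 776.0 to a peak on chromosome 7 (133192984 to 133193839). On chromosome 1 there were peaks with 753.0 (213367182 to 213368192) and 701.9 (126046621 to 126049830). The peak on chromosome 4 (198628621 to 198629020), with 727.9, was just 400 bp wide. The peak on chromosome 2 (134264689 to 134265222), with 695.5, was solitary, 285.9 kb from the nearest DLX3 peak and 574.2 kb from the mark, the farthest of the 10.

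Among remote peaks with a score of 200 or more, solitary ones were shorter. There were 117 solitary peaks at that score (9.14% of the solitary) and 436 with a neighbour (10.9% of those). Of the solitary ones, 101 were under 1000 bp (86.3%, Wilson interval 78.9 to 91.4%), and of those with a neighbour 229 were (52.5%, 47.8 to 57.2%). Among the 3808 peaks of that score at 10 to 100 kb from the mark, 28.9% were under 1000 bp (27.5 to 30.4%). Only 71 of those 3808 were solitary, and their widths were not counted apart. The 3808 thus differ from the solitary remote peaks in neighbours as well as in distance. At a score of 500 or more the 8 solitary remote peaks were all under 1000 bp, as were 16 of the 38 with a neighbour. The next solitary peaks by score, after those on chromosomes 5, 7 and 2 above, lay on chromosome 7 (93059620 to 93060168, 549 bp, score 665.8) and on chromosome 6 (55109277 to 55110270, 994 bp, score 568.8). What a short, high and lone peak represents was not tested, since the lists hold neither reads nor control signal.

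**Figure D2:**
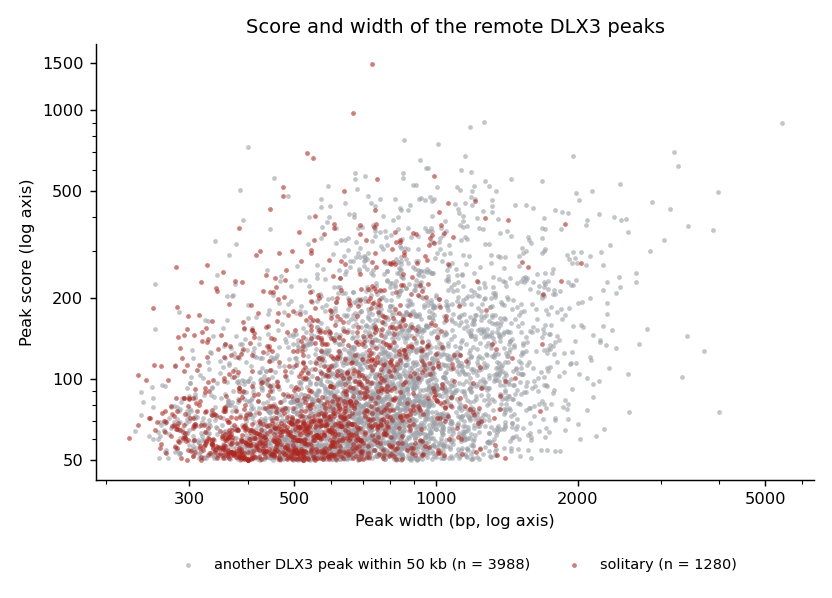
Score against width (bp, both axes log) of the remote DLX3 peaks, 1280 solitary ones in red and 3988 with another DLX3 peak within 50 kb in grey. Solitary peaks lie toward the narrow side, with a median of 560 bp, and the 2 highest scores, 1492 and 978.6, are solitary peaks of 733 and 668 bp. At a score of 500 or more, 8 of 46 remote peaks are solitary, against 24.3% of all remote peaks.

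The widest remote peaks all had neighbours. After the chromosome 13 peak, chromosome 10 held peaks of 3997 bp (74372267 to 74376263) and 3706 bp (74395419 to 74399124), with 25 and 21 neighbours and scores of 75.6 and 127.2. A peak of 3973 bp on chromosome 7 (25340249 to 25344221) had 4 neighbours and a score of 497.8. One of 3878 bp on chromosome 5 (146026922 to 146030799) had 5 neighbours and a score of 360.0. These 4 lay 145.5 to 167.8 kb from the mark, and their scores did not follow their widths. The farthest peaks were the opposite in shape. The farthest, 3254 kb from the mark on chromosome 3 (93289855 to 93290270), was 416 bp wide. The next was 266 bp wide and 3017 kb away on chromosome X (101317111 to 101317376). Then came a peak of 328 bp at 2684 kb on chromosome 2 (152945436 to 152945763), a peak of 403 bp at 2534 kb on chromosome 13 (69510150 to 69510552), and a peak of 550 bp at 2461 kb on chromosome 9 (33295458 to 33296007). All 5 were solitary, at least 1123 kb from any DLX3 peak, and only the chromosome 2 peak had a score over 100, 141.4 against 56.9, 63.6, 58.0 and 69.7 for the others.

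The remote peaks fell in 1443 stretches of sequence without H3K4me3, each bounded by consecutive H3K4me3 peaks except for 4 at chromosome ends. By the rule a bounded stretch must exceed 200 kb to hold one. The 1439 bounded stretches with remote peaks had a median length of 452.4 kb (quartiles 303.9 and 822.9 kb, interval of the median 430.1 to 468.2 kb), and the longest measured 65791 kb. Among all stretches between H3K4me3 peaks the median was 28.1 kb. Of the 2692 bounded stretches over 200 kb, 53.5% held at least 1 remote peak. Most held few: 504 stretches had 1, 575 had 2 to 4, 270 had 5 to 9 and 94 had 10 or more. The load was uneven, since those 94 held 1467 remote peaks (27.8%), and the 258 fullest stretches held 50% of them.

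Among stretches with remote peaks, no class over 600 kb held more of them each, on average, than that of 400 to 600 kb. The share of stretches with a remote peak was 38.1% at 200 to 300 kb (35.0 to 41.3%), 55.0% at 300 to 400 kb, and 57.4 to 64.99% in every longer class. Among stretches with any, the mean number went from 2.59 at 200 to 300 kb to 4.51 at 400 to 600 kb and 3.31 over 5 Mb. Per Mb of remote sequence the density therefore dropped, from 22.4 at 200 to 300 kb through 10.1 at 400 to 600 kb and 2.41 at 1 to 2 Mb to 0.201 over 5 Mb. Part of this was seen at a fixed distance. In the band 100 to 150 kb from the mark, stretches of 300 to 400 kb had 13.6 DLX3 peaks per Mb, those of 600 kb to 1 Mb had 5.33 and those of 2 to 5 Mb had 2.34. The 100 kb next to the mark in these 3 classes held 17.7, 8.62 and 5.28 DLX3 peaks per Mb. The decrease was not even: stretches of 1 to 2 Mb had 5 per Mb in the band and 10.1 next to the mark, and the 26 stretches over 5 Mb had 4.23, from 11 peaks, and 8.85.

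**Figure D3:**
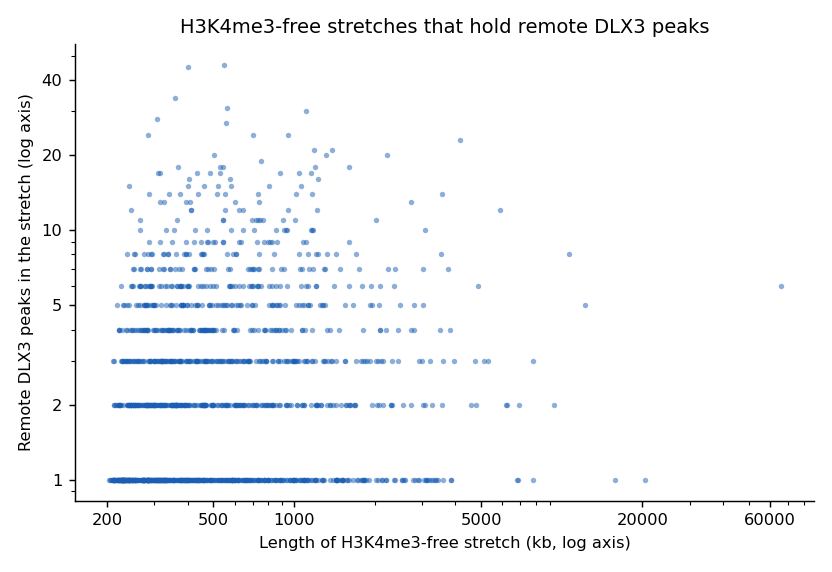
Number of remote DLX3 peaks against the length of the H3K4me3-free stretch that holds them (kb, both axes log), 1 point for each of 1439 bounded stretches. The fullest stretches, with 30 to 46 remote peaks, are 360 to 1104 kb long, and the longest, 65791 kb, holds 6.

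The fullest stretches held dense fields of mostly weak peaks. The stretch on chromosome 14 from 20176133 to 20722109 (546.0 kb) had 78 DLX3 peaks, 46 of them remote. The remote ones scored 65.1 at the median and 228.4 at most. Its remote peaks spanned 235.5 kb and none was solitary. On chromosome 2, the stretch from 132727005 to 133127611 (400.6 kb) held 45 remote peaks in 181.8 kb, scoring 65.9 at the median and 467.3 at most. The stretch on chromosome 10 from 74204511 to 74564235 (359.7 kb) held 34 in 131.6 kb, among them 2 of the 5 widest. The stretch on chromosome 9 from 11681793 to 12245351 (563.6 kb) held 31 with a median score of 63.7.

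The fifth was laid out differently. On chromosome 5, the stretch from 128636877 to 129740459 (1104 kb) held 30 remote peaks spread over 848.1 kb, and just 3 DLX3 peaks nearer to the mark. Their median score was 90.1, above the 79.2 of all remote peaks, whereas the medians of the other 4 stretches, 63.7 to 73.3, were below it.

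**Figure D4:**
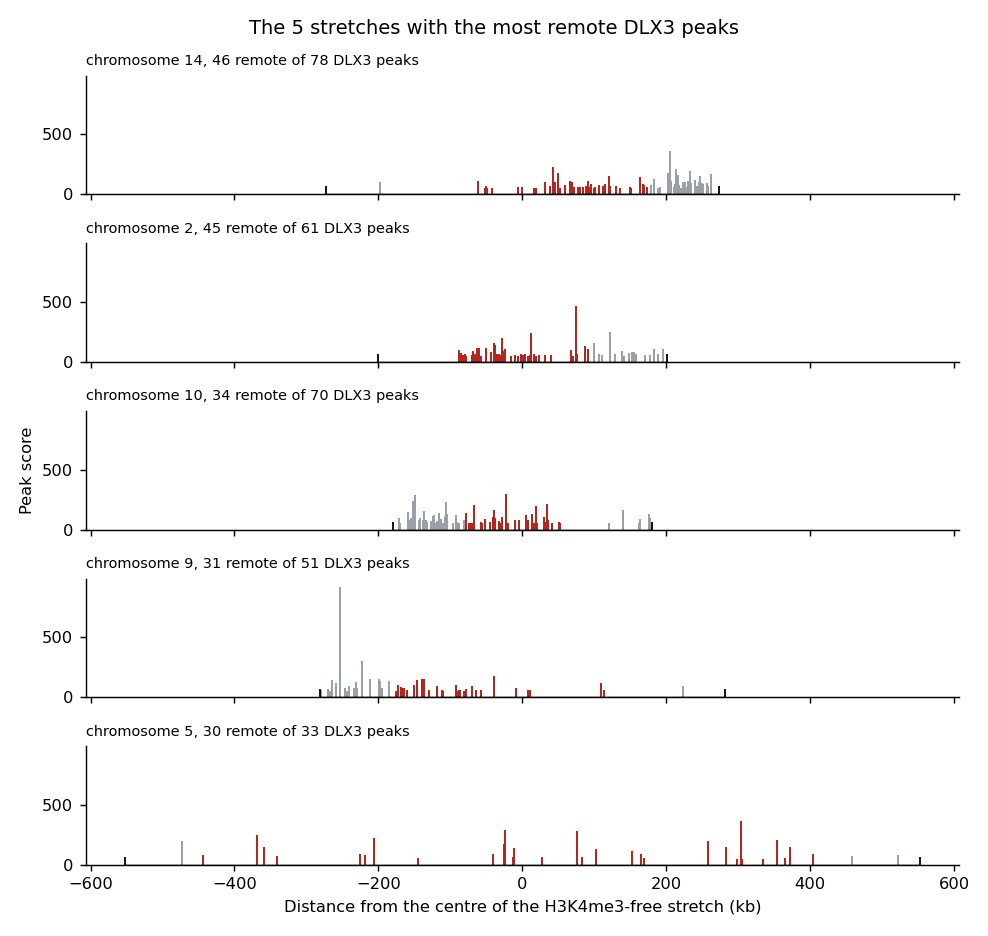
Positions of DLX3 peaks in the 5 stretches with the most remote peaks, as distance from the centre of the stretch (kb), with line height giving the peak score; red lines are remote peaks, grey lines DLX3 peaks up to 100 kb from the mark, and black ticks the ends of the stretch. On chromosomes 14, 2, 10 and 9 the remote peaks run on from a field of nearer DLX3 peaks on 1 side, while the 30 on chromosome 5 are spread over 848.1 kb.

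The longest stretches held few remote peaks for their length, most of them at the edges. Among all stretches with remote peaks the median number was 2. The longest, 65791 kb on chromosome 4 (67476933 to 133267970), held 6. Chromosome 2 had a stretch of 20462 kb (20292935 to 40754539) with 1, and chromosome 13 a stretch of 15753 kb (2806016 to 18559329) with 1. A stretch of 12257 kb on chromosome 19 (11796511 to 24053882) held 5, and a stretch of 10623 kb on chromosome 6 (9674949 to 20297738) held 8. Of these 21 peaks, 20 lay within 500 kb of the mark. The 6 on chromosome 4 lay between 116.1 and 310.1 kb from it, the strongest with a score of 472.9, and the rest of that stretch had no remote peak. The exception, on chromosome 13 (16804048 to 16804514), was 1755 kb from the mark with a score of 50.2. Whether such stretches lack binding, mappable sequence or entries in the lists was not tested. The distances of the peaks beside them rest on the H3K4me3 peaks listed.

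Remote peaks were found on every chromosome of the lists. Chromosome 1 had the most, 552, and chromosome 20 the fewest, 71. As a share of a chromosome's DLX3 peaks they made up 3.46% on chromosome 20 (2.75 to 4.34%) and 4.06% on chromosome 12, and 10.1% on chromosome 2, 10.5% on chromosome 9 (9.50 to 11.6%) and 10.6% on X (8.56 to 13.1%). Relative to the sequence over 100 kb from the mark, chromosome 10 was densest, with 8.81 remote peaks per Mb, followed by 6.43 on chromosome 9 and 6.36 on chromosome 19. The lowest autosome was chromosome 4 with 2.01 per Mb. Both ends of this order rest on the longest stretches: without those over 5 Mb, chromosome 19 was densest with 11.8 per Mb, above chromosome 10 at 8.81, and no autosome was under 3.26. On chromosome 9 the solitary share was 15.2% and the median score 73.8, so its remote peaks were many, clustered and weak.

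Chromosome X was poor in remote peaks for the amount of remote sequence it has. Sequence over 100 kb from the mark made up 64.4% of the span of X and 48.2% of that of the autosomes. X held 76 remote peaks, 1.44% of them all (1.15 to 1.80%), or 0.764 per Mb of remote sequence against 3.92 on the autosomes. The density ratio was 0.195 (exact 95% interval 0.153 to 0.244), and 0.216 without stretches over 5 Mb. DLX3 peaks off the mark but within 100 kb of it gave a similar ratio of 0.162, from 5.43 per Mb on X and 33.6 on the autosomes. X was thus thin in DLX3 at both ranges, and the share of its DLX3 peaks that were remote was close to those of chromosomes 2 and 9. Its remote peaks were the most isolated: 36 of 76 were solitary (47.4%, 36.5 to 58.4%), against 8.91 to 32.9% on the autosomes. Their median score of 69.2 was the lowest of any chromosome. Both traits were also seen in the X peaks at 10 to 100 kb. Of these, 22.6% were solitary, against 2.26 to 4.38% on the autosomes, and their median score of 72.9 was again the lowest. Neither trait was thus particular to the remote peaks of X. The labels used here do not give the animals' sex.

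**Figure D5:**
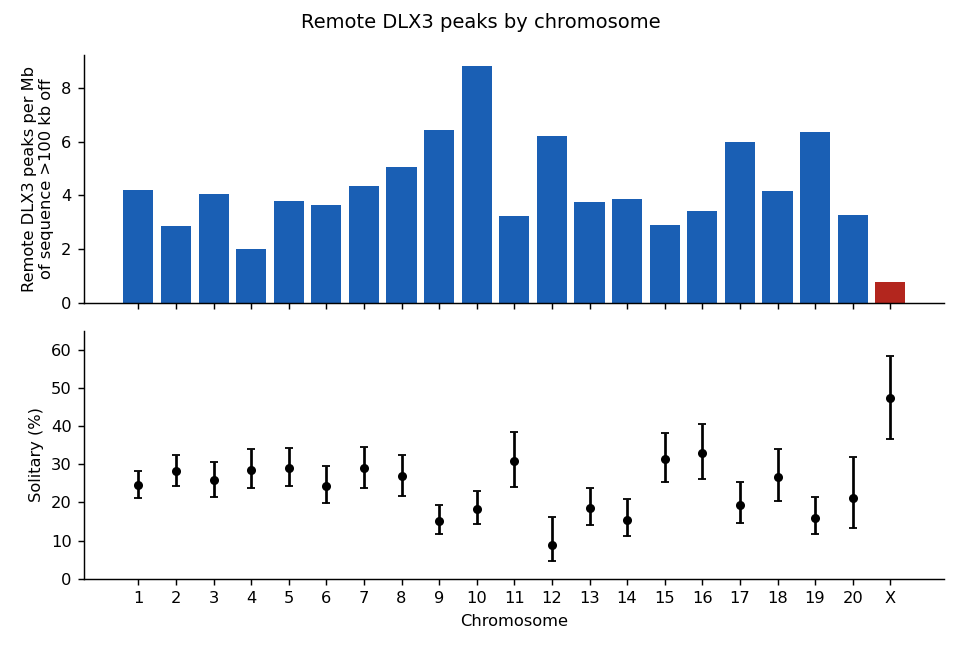
Remote DLX3 peaks by chromosome: bars give remote peaks per Mb of sequence over 100 kb from H3K4me3 (X in red), and points the share that is solitary (%), with 95% Wilson intervals. X has the lowest density, 0.764 per Mb, and the highest solitary share, 47.4%; chromosome 10 has the highest density, 8.81 per Mb, but without stretches over 5 Mb chromosome 19 does, with 11.8.

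The H3K4me3 peaks at the ends of these stretches were somewhat weaker and less often bound by DLX3 than H3K4me3 peaks in general. The 2625 H3K4me3 peaks that bound a stretch with remote DLX3 peaks had a median score of 327.8 in their own list (interval 273.2 to 393.6), against 451.2 for all 25094. Their median width was 1530 bp against 1757 bp. Of them, 1481 (56.4%, Wilson interval 54.5 to 58.3%) overlapped a DLX3 peak by at least 1 bp, against 63.9% (63.3 to 64.5%) of all H3K4me3 peaks. Where stretches over 200 kb held no remote DLX3 peak, the bounding H3K4me3 peaks overlapped DLX3 in 49.4% (47.4 to 51.5%). Their median width was 1498 bp and their median score 457.6. The lower overlap and width were thus not particular to stretches with remote peaks.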

How the data were processed

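Peak lists of the DLX3 and H3K4me3 ChIP-seq libraries were used, 1 library each; the input library was not analysed here. The build was rn5, and the tools named are MACS 1.4.2, Bowtie 1.1.2 and HOMER, per the submitters' processing notes; cutoffs and the use of the input are not given in the sources used here. The deposited score of each peak is the authors' value and was compared only within a list. Peak numbers in both lists run without a gap.

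Distances are gaps between peak edges, and positions are printed with starts counted from 1. A stretch without H3K4me3 runs between consecutive H3K4me3 peaks. A stretch at a chromosome end has an unknown length and stays out of length summaries. Density divides peaks by sequence in the same range of distance. Groups came from sample titles. Python 3.11.15, numpy 2.4.6, pandas 2.3.3 and scipy 1.17.1 were used; bedtools 2.31.1 gave the same 5268 remote peaks, and distances and neighbour counts were tested on simulated data. Shares carry 95% Wilson intervals, and medians order-statistic intervals.

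Named positions are the 10 remote peaks of highest score, the 5 farthest, widest, strongest solitary and nearest to the limit on each side, and the 5 stretches with the most remote peaks, the 5 longest, and the 5 chains with the most DLX3 peaks. The peaks and rules were chosen with earlier results of these data known. Alternatives changed the distance limit, edges or centres, the lists used, joining, chromosome X and the neighbour distance.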

Additional observations from a re-analysis of the deposited data

How the results depend on the processing

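Of 51 alternatives over 8 results, 21 stayed within the interval of the value given or within 1.5 times a count, and 30 did not. Centre to centre distances and leaving out chromosome X moved no result past these bounds. A limit of 50 kb gave 12642 remote peaks in 3050 stretches with a median length of 247.9 kb, a solitary share of 14.9%, a median width of 762 bp and 1.09% on X. A limit of 200 kb gave 1729 peaks in 600 stretches of 865.8 kb, a solitary share of 42.1%, a median score of 77.0, a width of 614 bp and 1.91% on X. The upper 50% of DLX3 peaks by score gave 2119 peaks in 916 stretches, 39.4% solitary, with a median score of 141.6, a width of 824 bp and 1.13% on X. The upper 50% of H3K4me3 peaks by score gave 12866 peaks, 14.9% solitary, with a median score of 82.5, a width of 778 bp, stretches of 510.7 kb and 0.979% on X. Thus the size of the class depends on which H3K4me3 peaks count. Joining DLX3 peaks at gaps up to 1000 bp gave 26.7% solitary and a median score of 80.8. Neighbour distances of 25 and 100 kb gave 35.2% and 14.4% solitary. Without stretches over 5 Mb the density was 4.50 per Mb. The limits and the upper 50% choices change the set of peaks themselves; why other values moved was not tested. Remote peaks had the lower score, lower width and higher solitary share beside peaks at 10 to 100 kb under the 4 of these settings where both were computed: centres, either upper 50% and joining. No paired analysis was possible because neither antibody has a second library. Depth is unknown.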

Other observations

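Long stretches without H3K4me3 often had no remote DLX3 peak. By the rule, a stretch just over 200 kb has little sequence past the limit. The 900 stretches of 200 to 300 kb had 39.8 Mb of such sequence in all, and 343 of them held a remote peak. Of the 2692 bounded stretches over 200 kb, 1253 had none, with a median length of 325.6 kb (quartiles 236.8 and 588.5 kb). In 530 of these there was no DLX3 peak at all outside the mark. The median length of those 530 was 418.6 kb and the longest measured 11476 kb. The H3K4me3 peaks bounding stretches without remote DLX3 peaks had a median score of 457.6 (interval 397.1 to 508.6), against 327.8 where remote peaks were present. DLX3 overlapped 49.4% of them (Wilson interval 47.4 to 51.5%), against 56.4%. Some H3K4me3 peaks bound a stretch of each kind and count in both groups, and the difference was not tested.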
